A study of Mus musculus with 6 samples.

Results

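Interstitial fibroblasts and fibro-adipogenic progenitors were followed through 10 marker genes, Pdgfra, Pi16, Dpt, Fbn1, Mfap5, Clec3b, Dpp4, Smoc2, Gsn and Cd34, chosen by symbol from the 34714 genes counted in gastrocnemius (Gas) muscle. Whole Gas muscles came from 3 wild-type (WT) mice and 3 miR-92b knockout (M92KO) mice, all 8 weeks old, with 1 RNA-seq library for each mouse. The sample labels used here name no treatment. The study's methods give an overnight fast before muscles were taken, and treadmill tests of mice at 8 weeks. Whether the sequenced mice ran in them is not given. The M92KO mice (miR-92b-/-) carry a global deletion on a C57BL/6JGpt background, so miR-92b is missing from fibroblasts as well as from muscle fibres and every other cell, and the WT mice were age-matched C57BL/6 animals. The M92KO mice were male. The sex of the WT mice, and whether they were littermates of the knockout, are not given in the sources used here.

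Fibro-adipogenic progenitors are mesenchymal cells that lie between muscle fibres and around vessels. They produce collagens, proteoglycans and elastic microfibrils of the muscle stroma, feed satellite cells with growth signals after injury, and can turn into fat cells or scar-forming fibroblasts. The receptor PDGFRα defines them, and an adventitial subset carries Pi16 and Dpp4 while cells among the fibres carry more Smoc2. In whole muscle, fewer fibroblasts and less RNA per fibroblast cannot be told apart.

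The deleted microRNA gives 2 mature strands, and their sequences are shown because a match to the seed (bases 2 to 8, in capitals) is the simplest sequence link between miR-92b and a marker. Both come from RefSeq (GRCm38.p6) and lie on chromosome 3, minus strand, with the 3p strand at 89227126 to 89227147 and the 5p strand at 89227165 to 89227188.
miR-92b-3p: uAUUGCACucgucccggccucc
miR-92b-5p: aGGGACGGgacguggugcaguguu
The seed of miR-92b-3p is also that of other microRNAs whose genes the knockout does not remove, and they are shown, as RefSeq gives them, with the seed in capitals.
miR-92a-3p: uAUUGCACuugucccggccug
miR-25-3p: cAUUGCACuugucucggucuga
miR-32-5p: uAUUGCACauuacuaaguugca
miR-363-3p: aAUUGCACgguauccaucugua
miR-367-3p: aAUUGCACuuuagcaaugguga
A match of 7 bases in a 3′-UTR reads GTGCAAT for miR-92b-3p and CCGTCCC for miR-92b-5p, searched on the transcribed strand of protein-coding transcripts of GENCODE M21. Of the 10 markers, 1 held the match for miR-92b-3p and 0 that for miR-92b-5p, and over the 13676 tested genes with an annotated 3′-UTR the shares were 8.0% and 4.1%. The gene with the match was Fbn1. Its site is a match of 8 bases, GTGCAATA, present in both of the 2 transcripts searched. It spans 125300770 to 125300777 of chromosome 2 (GRCm38, minus strand) and is shown in capitals within its surroundings.
Fbn1 site: tcacacagcatGTGCAATAcgccaaaatca
A letter match is a description of the sequence and does not show that the microRNA binds there.

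All libraries were deep, with 33160508 to 48209846 counts, and each M92KO library was smaller than each WT library. Levels are given in CPM, a gene's count relative to the library total after TMM scaling. The labels could not be checked against the deleted microRNA, which was not analysed here. M92KO replicate 1 stood apart: a chi-square statistic per degree of freedom, which would be near unity for repeated sequencing of the same RNA, was 57.4 between it and each of the other M92KO libraries, 10.9 between those, and 12.8 to 29.6 among WT libraries. The log2 fold change of each marker is therefore also given without it, as are the counts and medians of the gene lists. With all libraries, edgeR's quasi-likelihood test gave 0 of 15788 genes (0.0%) an adjusted p-value under 0.05, while 1955 had an unadjusted p-value under 0.05 and DESeq2 gave 312 an adjusted one. At the unadjusted level, 6.92% of all genes tested were lower and 5.47% were higher in M92KO muscle.

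All 10 markers were detected in every library and passed the filter on low counts. None had an adjusted p-value under 0.05 from edgeR (0 of 10), none did with DESeq2, and 1 of 10, Smoc2, had an unadjusted p-value under 0.05. The log2 fold change, M92KO over WT, was negative for 7 markers and positive for 3, with a median of -0.11. The median over all genes tested was near 0, and 50.0% of them were negative. The typical size of a difference, the median of the log2 fold changes without their sign, was 0.13 for the markers and 0.12 for all genes tested. Every 95% interval lay within 1 log2 unit on both sides (10 of 10), so a doubling or halving of any marker lies outside its interval. In 2 of 10 markers, Smoc2 and Clec3b, all M92KO values lay below all WT values, as they did in 9.58% of all genes tested. No marker had all M92KO values above all WT values, against 8.77% of genes.

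**Figure D1:**
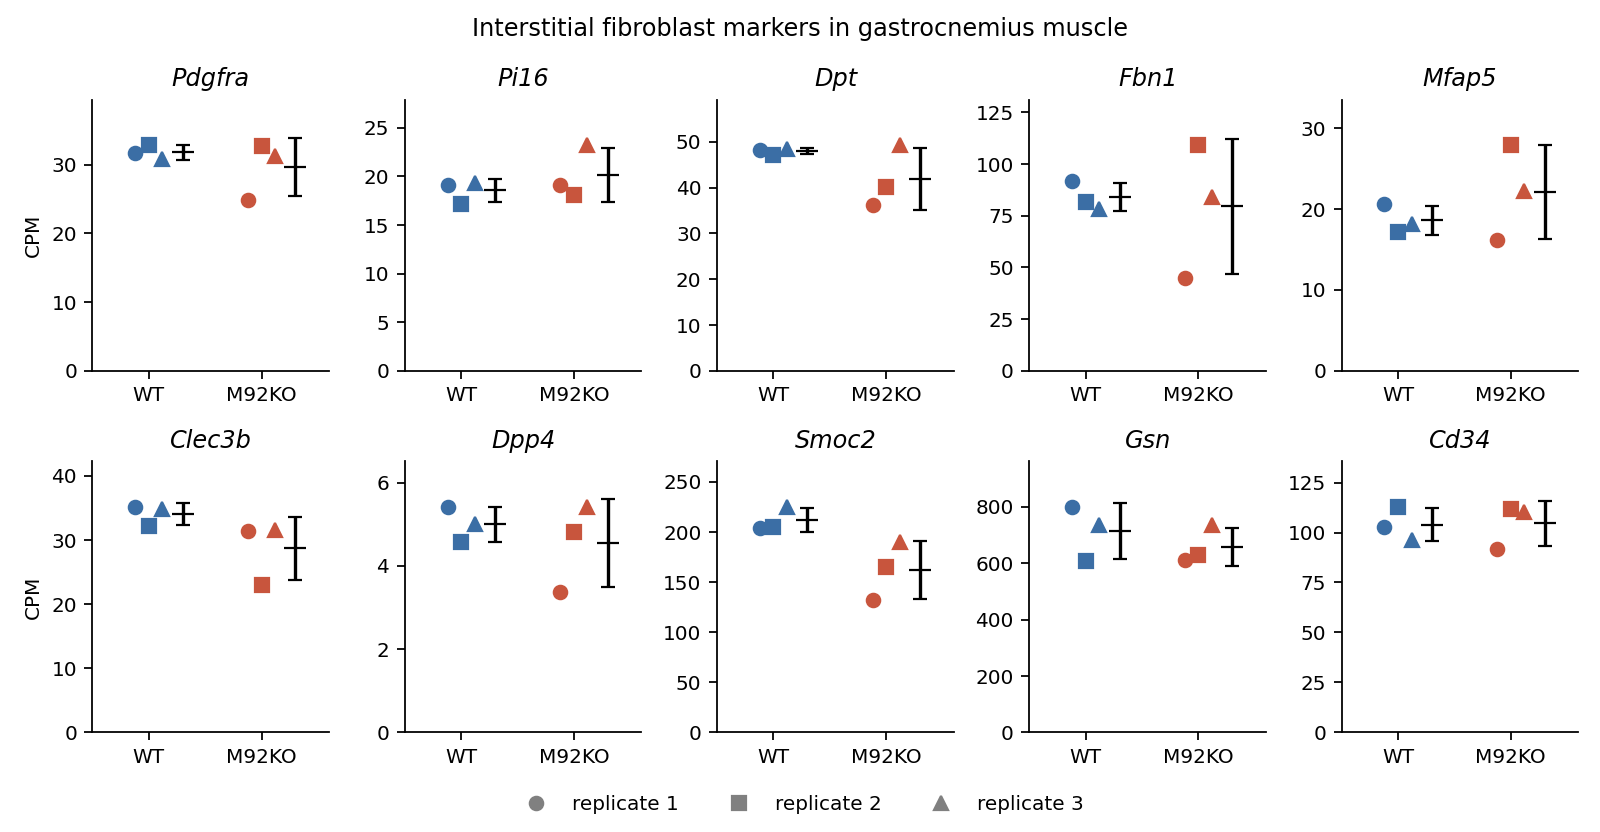
Level of the 10 markers in CPM in each library, on axes that start at 0, with WT in blue and M92KO in red. The symbols give the replicate and the black bars the mean ± SD of 3 mice. The groups are apart for Smoc2 and Clec3b, both lower in M92KO muscle, and overlap for the other 8 markers.

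Markers at the cell surface define the progenitors. Pdgfra (ENSMUSG00000029231, chromosome 5, 75152292 to 75198215, plus strand, GRCm38) encodes the receptor PDGFRα, through which platelet-derived growth factors drive proliferation of these cells. Its WT values were 31.7, 32.9 and 30.7 CPM, and its M92KO values were 24.8, 32.7 and 31.3 CPM. Only M92KO replicate 1 lay outside the WT range, below it. The group means were 31.8 ± 1.06 and 29.6 ± 4.21 CPM (SD, n = 3 each), and the log2 fold change was -0.10 with a standard error of 0.11 (95% interval -0.34 to 0.14, adjusted p = 0.752 from edgeR). Without M92KO replicate 1 it was 0.01 (95% interval -0.14 to 0.16).

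Cd34 (ENSMUSG00000016494, chromosome 1, 194938819 to 194961279, plus strand) encodes a sialomucin carried by progenitors and also by endothelial and satellite cells. It stood at 103, 113 and 96.3 CPM in WT and at 91.7, 112 and 110.2 CPM in M92KO muscle. Of the M92KO values, 1 lay below the WT range and 2 inside it, and the log2 fold change was 0.009 (95% interval -0.21 to 0.23, adjusted p = 0.98 from edgeR). It was 0.096 without M92KO replicate 1. Cd34 thus had the smallest difference of the 10 markers. Its exons overlap the antisense gene Gm16897, which had 62 to 104 counts per library against 3183 to 4740 for Cd34.

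Dpp4 (ENSMUSG00000035000, chromosome 2, 62330073 to 62412231, minus strand) encodes a membrane peptidase that trims chemokines and incretins and marks the adventitial subset. It was the least abundant marker, with 4.58 to 5.41 CPM in WT and 3.37, 4.83 and 5.43 CPM in M92KO muscle. Its highest and lowest values were both from M92KO mice. Its log2 fold change was -0.14 with a standard error of 0.19 (95% interval -0.56 to 0.28, adjusted p = 0.813 from edgeR), and 0.035 without M92KO replicate 1. The counts behind these values, between 117 and 250 per library, were the lowest of the 10 markers.

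Pi16 (ENSMUSG00000024011, chromosome 17, 29317680 to 29330593, plus strand) encodes a secreted peptidase inhibitor and marks the same adventitial subset. It stood at 19.1, 17.2 and 19.4 CPM in WT and at 19.1, 18.1 and 23.3 CPM in M92KO muscle. Of the M92KO libraries, 1, replicate 3, lay above the WT range and the others inside it. The log2 fold change of Pi16 was 0.12 (standard error 0.11, 95% interval -0.13 to 0.37, adjusted p = 0.722 from edgeR), and it was positive in every fit that left out a library (0.003 without M92KO replicate 3 to 0.19), with 0.16 without M92KO replicate 1.

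Smoc2, Dpt and Clec3b encode secreted proteins of the stroma, and all 3 had negative log2 fold changes in each of the fits that left out a library. Gsn did as well (-0.22 to -0.03). Smoc2 (ENSMUSG00000023886, chromosome 17, 14279506 to 14404790, plus strand), a calcium-binding matricellular protein that modulates growth factor signalling, stood at 203.9, 205.5 and 225.5 CPM in WT and at 132, 164.7 and 189.8 CPM in M92KO muscle. Every M92KO value was below every WT value, and the highest M92KO value was 189.8 CPM against a lowest WT value of 203.9 CPM. The means were 212 ± 12.1 and 162 ± 29.0 CPM (SD, n = 3 each), a fold of 0.766 and a log2 fold change of -0.38 with a standard error of 0.12 (95% interval -0.67 to -0.10). The unadjusted p-value was 0.0132 and the adjusted p-value 0.281 from edgeR's quasi-likelihood test, and a two-sided exact permutation test gave p = 0.1, the smallest it can give with 3 mice against 3. Smoc2 was lower at an unadjusted p-value of 0.05 under 14 of the 14 alternatives, in which its log2 fold change ran from -0.51 to -0.26 and its adjusted p-value from 0.0949 (DESeq2) to 0.621. Without M92KO replicate 1, the lowest of the 6 libraries for Smoc2, it was -0.26 (95% interval -0.43 to -0.08, adjusted p = 0.132 from edgeR).

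Clec3b (ENSMUSG00000025784, chromosome 9, 123150946 to 123157432, plus strand) encodes tetranectin, a plasminogen-binding lectin-like protein. It stood at 35.2, 32.2 and 34.8 CPM in WT and at 31.5, 23.0 and 31.6 CPM in M92KO muscle. All M92KO values were below all WT values, but 2 of them by under 1 CPM, and replicate 2 was much the lowest. For Clec3b the log2 fold change was -0.25 (standard error 0.12, 95% interval -0.53 to 0.03, adjusted p = 0.465 from edgeR, exact permutation p = 0.1). It had an unadjusted p-value under 0.05 in 6 of the 14 alternatives and ran from -0.32 to -0.11, the latter without M92KO replicate 2. Clec3b was at -0.32 without M92KO replicate 1 (95% interval -0.61 to -0.03, adjusted p = 0.234 from edgeR).

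Dpt (ENSMUSG00000026574, chromosome 1, 164796644 to 164824266, plus strand) encodes dermatopontin, which binds decorin and helps to assemble collagen fibrils, and is carried by fibroblasts of most tissues. The WT libraries were close together at 48.1, 47.2 and 48.4 CPM, while the M92KO libraries stood at 36.3, 40.1 and 49.3 CPM. Of the M92KO values 2 were below the WT range and 1 above it. Between the groups Dpt differed by -0.19 on the log2 scale (standard error 0.11, 95% interval -0.44 to 0.05, adjusted p = 0.522 from edgeR), and it was -0.10 without M92KO replicate 1 and -0.33 without M92KO replicate 3.

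Fbn1 and Mfap5 encode parts of the same structure, the microfibril. Fbn1 (ENSMUSG00000027204, chromosome 2, 125300594 to 125507993, minus strand), whose 3′-UTR holds the match to miR-92b-3p shown above, encodes fibrillin-1, the backbone protein of microfibrils that store latent TGF-β. It stood at 91.6, 81.9 and 78.4 CPM in WT and at 45.0, 109 and 84.3 CPM in M92KO muscle. M92KO replicate 1 was the lowest and M92KO replicate 2 the highest of the 6 libraries. The SD was 6.86 CPM in WT and 32.5 CPM in M92KO mice, and the log2 fold change of -0.08 had the largest standard error of the 10 markers, 0.26 (95% interval -0.67 to 0.52, adjusted p = 0.937 from edgeR). The sign of Fbn1 rested on that library: without M92KO replicate 1 the log2 fold change was 0.21 (95% interval -0.06 to 0.47, adjusted p = 0.382), and without M92KO replicate 2 it was -0.38. Of the 12128 exon bases of Fbn1, 2442 lie opposite an exon of Gm9913, a gene of the other strand.

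Mfap5 (ENSMUSG00000030116, chromosome 6, 122505845 to 122529290, plus strand) encodes a microfibril-associated glycoprotein that binds fibrillin-1. It stood at 20.6, 17.2 and 18.1 CPM in WT and at 16.2, 27.9 and 22.2 CPM in M92KO muscle. In the M92KO group, 2 libraries were above and 1 was below every WT value. Its log2 fold change of 0.25 was the highest of the markers (standard error 0.18, 95% interval -0.16 to 0.65, adjusted p = 0.637 from edgeR). Without M92KO replicate 1, Mfap5 was at 0.43 (95% interval 0.15 to 0.70, unadjusted p = 0.00736, adjusted p = 0.111 from edgeR), and without M92KO replicate 2 it was at 0.043.

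Gsn (ENSMUSG00000026879, chromosome 2, 35256380 to 35307892, plus strand) encodes gelsolin, which severs and caps actin filaments and is made both as a cytoplasmic and as a secreted form. Fibroblasts carry much of it, but smooth muscle and other cells do too. It stood at 801, 606 and 736 CPM in WT and at 611, 629 and 734 CPM in M92KO muscle, with all M92KO values inside the WT range. Gsn was the only marker with a smaller SD of log2 CPM in M92KO than in WT mice. The log2 fold change was -0.12 (standard error 0.12, 95% interval -0.39 to 0.15, adjusted p = 0.737 from edgeR). It was -0.07 without M92KO replicate 1, -0.03 without WT replicate 1 and -0.22 without WT replicate 2.

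**Figure D2:**
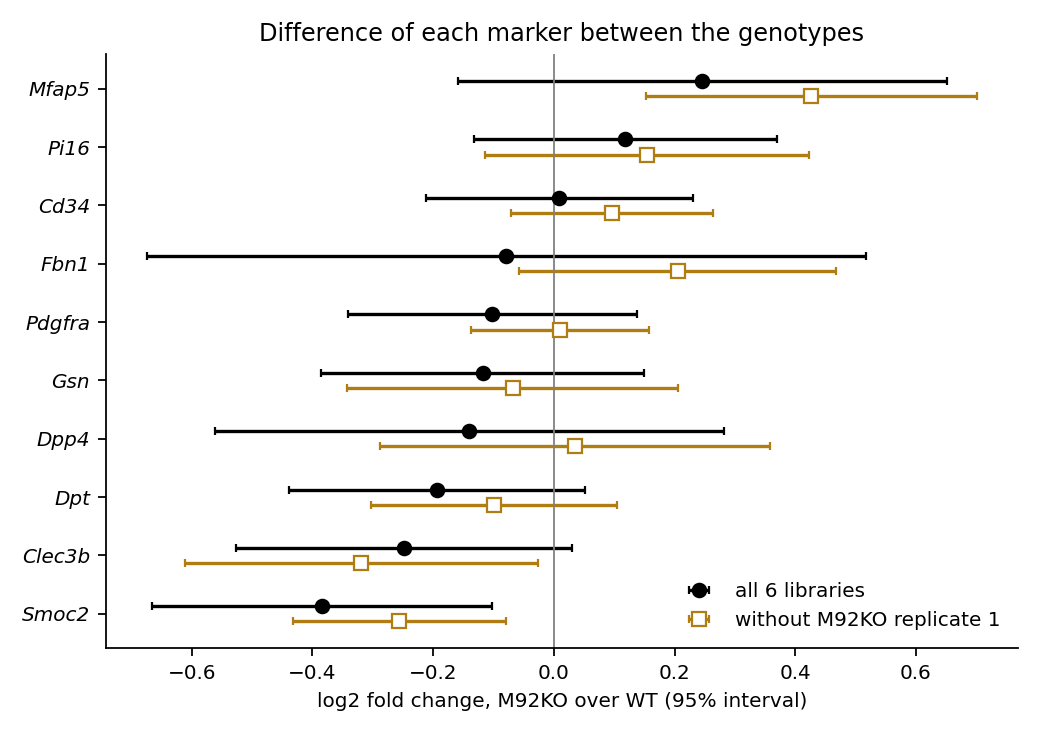
Log2 fold change of each marker, M92KO over WT, with its 95% interval from edgeR's quasi-likelihood fit, for all 6 libraries (black circles) and without M92KO replicate 1 (open squares). With all libraries only the interval of Smoc2, -0.67 to -0.10, lies to 1 side of 0, and without M92KO replicate 1 those of Clec3b and Mfap5 do as well.

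Levels can be compared between genes only per length, and here the CPM was divided by the length in kb of the longest annotated transcript. In WT muscle, Gsn was the highest at 269 ± 37.4 CPM per kb (SD, n = 3), followed by Smoc2 at 53.3 ± 3.04, Clec3b at 34.3 ± 1.68, Cd34 at 33.9 ± 2.76 and Dpt at 27.8 ± 0.382. Mfap5 at 7.48 ± 0.719 and Fbn1 at 7.01 ± 0.573 came next, then Pdgfra at 4.65 ± 0.155, Pi16 at 4.65 ± 0.299 and Dpp4 at 0.949 ± 0.0787 CPM per kb. Between neighbours in this order, Clec3b and Cd34, Mfap5 and Fbn1, and Pdgfra and Pi16 overlapped between mice, and the others did not. On this scale Pdgfra, the defining receptor gene of these cells, was among the lowest of their markers. In M92KO muscle Smoc2 stood at 40.8 ± 7.30 CPM per kb (SD, n = 3), next to Gsn at 248 ± 25.0. With the joined length of all annotated exons in place of the longest transcript, the order changed. In WT muscle Clec3b at 34.3 ± 1.68 then ranked above Smoc2 at 30.5 ± 1.73 CPM per kb, with values that overlapped between mice, Cd34 at 14.3 ± 1.16 ranked below Dpt, and Fbn1 at 6.92 ± 0.565 ranked above Mfap5 at 5.19 ± 0.499 (SD, n = 3). On that scale Smoc2 stood at 23.3 ± 4.17 CPM per kb in M92KO muscle, below Clec3b at 28.9 ± 4.99 and Dpt at 24.3 ± 3.90, which it overlapped. The places of these genes therefore depend on the length used.

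The spread of the markers was compared with that of all genes. The SD of log2 CPM was larger in the M92KO group for 9 of 10 markers, and it was for 67.4% of all genes tested. Of the M92KO libraries, replicate 1 was the lowest for 8 of 10 markers, as it was for 38.3% of all genes tested, and it was the lowest of all 6 libraries for 7 of 10, as for 25.3% of genes. After each gene was centred on its mean over the 6 libraries, the mean log2 CPM of the 10 markers was 0.12, -0.003 and 0.05 for WT mice and -0.30, 0.02 and 0.12 for M92KO mice. M92KO replicate 3 and WT replicate 1 were therefore level at the top, and M92KO replicate 1 alone was low. Without it, 4 markers had a negative and 6 a positive log2 fold change, and their median was 0.02. The sign of the median therefore rested on that library. In that fit 8.96% of all genes were lower and 9.62% higher at an unadjusted p-value of 0.05, and of the markers 2 were lower (Smoc2 and Clec3b) and 1 was higher (Mfap5). No marker had an adjusted p-value under 0.05 in it (edgeR, 0 of 10), as 2.5% of all genes did.

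**Figure D3:**
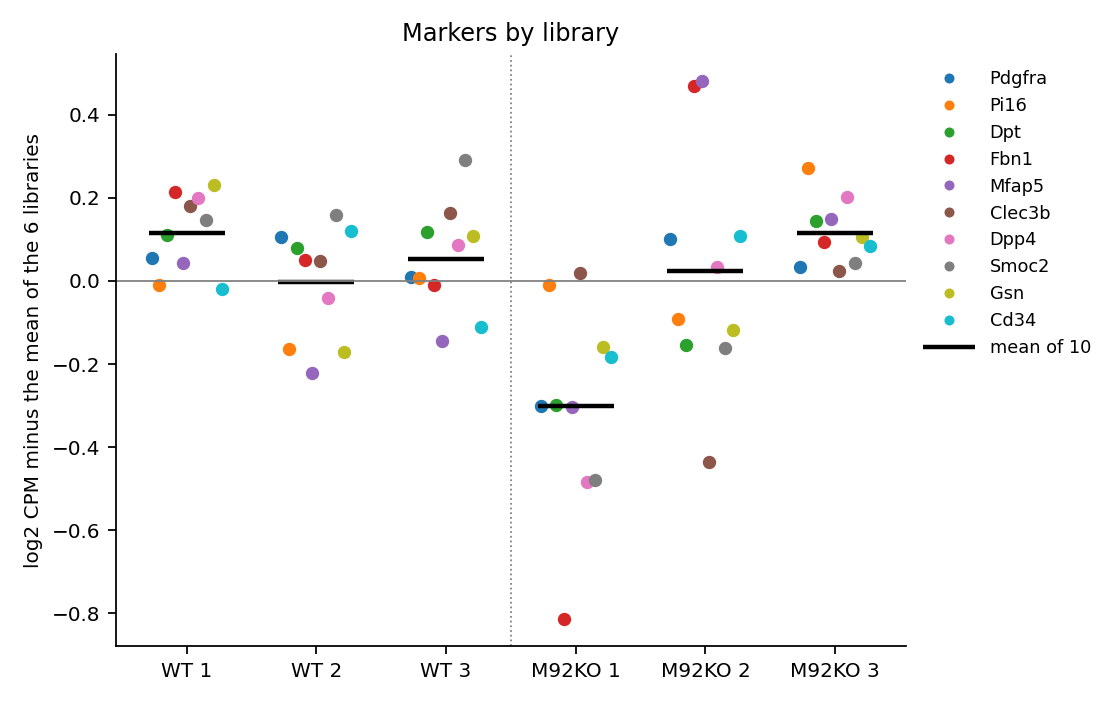
Log2 CPM of each marker in each library minus the marker's mean over the 6 libraries, with 1 colour for each gene and black bars for the mean of the 10. The mean is -0.30 in M92KO replicate 1 and between -0.003 and 0.12 in the other 5 libraries, and Fbn1 spans the widest range.

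A ratio within a library does not depend on how the library was scaled, and the other 9 markers were set against Pdgfra, a choice made after the values had been seen. The ratio of Smoc2 to Pdgfra CPM was 6.43, 6.26 and 7.34 in WT and 5.32, 5.03 and 6.07 in M92KO libraries, so the groups did not overlap. The ratio of Mfap5 to Pdgfra was 0.651, 0.523 and 0.589 in WT and 0.653, 0.854 and 0.710 in M92KO libraries. It was higher in every M92KO library, but only narrowly in M92KO replicate 1 (0.6531 against 0.6505 in WT replicate 1). The ratios of Smoc2 and of Mfap5 each had a two-sided exact permutation p = 0.1, the smallest possible, and an adjusted p = 0.45 over the 9 ratios. The mean log2 ratio of Smoc2 differed by -0.29 and that of Mfap5 by 0.33 between the groups. The ratios of the other 7 markers overlapped between the groups. For CPM itself, the groups did not overlap in 18.4% of all genes tested, and no such share was computed for ratios. The ratio of Gsn to Pdgfra was 22.6 ± 3.61 in WT and 22.4 ± 2.86 in M92KO libraries (SD, n = 3 each), and differed by -0.002 on the log2 scale. In the ratio of Smoc2, M92KO replicate 1 lay between the other M92KO libraries.

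Other genes of fibroblasts and of their matrix were read from lists with the same fit, in which 6.92% of all genes tested were lower and 5.47% higher at the unadjusted level. Of 30 other fibroblast and progenitor genes, all tested, 8 (26.7%) were lower and 2 (6.67%) were higher in M92KO muscle at an unadjusted p-value of 0.05, and 0 had an adjusted p-value under 0.05 from edgeR. The list had a median log2 fold change of -0.05, and 16 of the 30 were negative. Dcn, the collagen-binding proteoglycan decorin and the gene of the list with the highest CPM (not per length), stood at 407 ± 11.9 CPM in WT and 323 ± 28.1 CPM in M92KO muscle (SD, n = 3 each), a log2 fold change of -0.33 (adjusted p = 0.188 from edgeR). Abi3bp, which encodes a matrix protein of connective tissue, had a log2 fold change of -0.48 (adjusted p = 0.179). For both genes every M92KO value was below every WT value. Tnfaip6, a hyaluronan-binding protein induced in inflammation, had the lowest value of the list, -1.36, at a low level of 3.52 ± 1.15 CPM in WT mice, and was picked out after its value was seen.

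The 2 higher genes, also picked out after their values were seen, were surface markers. Ly6a, which encodes the Sca-1 antigen used to sort progenitors and is also made by endothelium, stood at 61.1 ± 8.06 CPM in WT and 78.7 ± 4.27 CPM in M92KO muscle (SD, n = 3 each), a log2 fold change of 0.37 (adjusted p = 0.234 from edgeR). Cd55, which encodes a complement regulator found on adventitial fibroblasts and other cells, stood at 107 ± 7.32 and 127 ± 4.57 CPM, a log2 fold change of 0.25 (adjusted p = 0.251). In both genes the groups did not overlap. Without M92KO replicate 1, 8 genes of the list were lower and 5 higher at the unadjusted level, with a median of -0.08, and 2, picked out after their values were seen, had an adjusted p-value under 0.05 from edgeR: the protease gene Htra3 fell by 0.37 on the log2 scale (adjusted p = 0.0444) and the complement gene C3 rose by 0.48 (adjusted p = 0.037).

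Fbn1 and Mfap5 work with other microfibril and elastic fibre genes, of which 18 were tested. In M92KO muscle 3 (16.7%) were lower and 0 higher at the unadjusted level, with a median log2 fold change of -0.12, and 13 of 18 were negative. Ltbp4, which anchors latent TGF-β to microfibrils stood at 175 ± 9.19 CPM in WT and 150.0 ± 5.99 CPM in M92KO muscle (SD, n = 3 each), a log2 fold change of -0.22 (adjusted p = 0.269 from edgeR). Fbln5, an elastic fibre assembly protein, had one of -0.40 (adjusted p = 0.238). Both had all M92KO values below all WT values, while Fbn1 had M92KO values on both sides. None of the 18 had an adjusted p-value under 0.05 from edgeR, with or without M92KO replicate 1, and without it 3 were lower and 0 higher, with a median of -0.07.

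Of 12 genes of platelet-derived growth factor signalling other than Pdgfra, 1 (8.33%) was lower and 0 higher at the unadjusted level. The shares of all genes tested were 6.92% and 5.47%. The list had a median log2 fold change of -0.04. The lower gene was Pdgfb, an endothelial ligand that recruits pericytes, at 72.1 ± 5.03 CPM in WT and 61.3 ± 3.08 CPM in M92KO muscle (SD, n = 3 each), a log2 fold change of -0.23 (adjusted p = 0.287 from edgeR). Plcg1, a phospholipase downstream of the receptors, was at -0.18, and Ptpn11, a phosphatase of receptor signalling, at 0.11 with overlapping groups. The list had 1 lower and 1 higher gene and a median of 0.06 without M92KO replicate 1. The higher gene was Ptpn11, at 0.25 (unadjusted p = 0.0019, adjusted p = 0.0592 from edgeR). Of 15 genes of factors that progenitors can secrete, 14 were tested (Hgf was not), and 2 were lower and 0 higher, with a median of -0.05. The 2 were Ccn4, a matricellular protein that supports satellite cells, at -0.92 and a low level of 1.71 ± 0.770 CPM in WT mice, and Tgfb3 at -0.18 (adjusted p = 0.343 and 0.362 from edgeR). The value of Ccn4 was -0.50 without WT replicate 1. Without M92KO replicate 1, 0 genes of that list were lower and 2 higher, with a median of -0.01. Cxcl12, a chemokine of stromal cells, stood at 221 ± 11.5 and 218 ± 22.6 CPM.

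**Figure D4:**
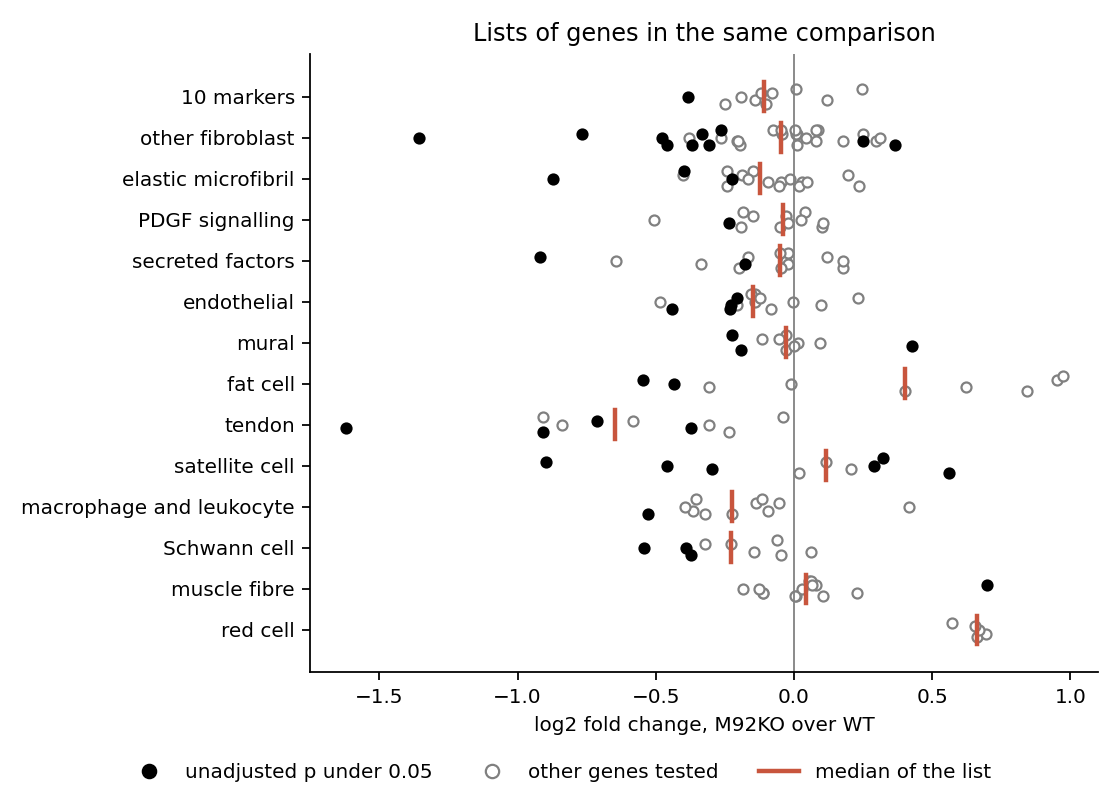
Log2 fold change, M92KO over WT, of every tested gene of 14 lists, with filled points for an unadjusted p-value under 0.05 and a red bar for the median of a list. The 10 fibroblast markers have a median of -0.11 and 1 filled point, Smoc2, and the 10 tendon genes, with a median of -0.65, all lie below 0.

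Markers of some other cells of a whole muscle moved with some of these values, and those of others did not. Their part in these values was not tested. Every gene of these lists was above 3 counts in at least 1 library. The summed level of the 10 fibroblast markers was 1158 to 1359 CPM in WT and 1011 to 1281 CPM in M92KO muscle. Most of it was Gsn, with 606 to 801 CPM in WT and 611 to 734 CPM in M92KO muscle. The sum was lowest in M92KO replicate 1. The same library was the lowest for the summed levels of 14 endothelial genes (1687 to 1790.0 CPM in WT, 1448 to 1687 CPM in M92KO) and of 10 mural genes (1595 to 1639 and 1382 to 1573 CPM). It was so too for 11 macrophage and leukocyte genes (126 to 139 and 96.1 to 139 CPM) and for 10 tendon genes (114 to 146 and 102 to 123 CPM). Most of the tendon sum was Thbs4, at 66.9 CPM in M92KO replicate 1, its lowest library. Kera was also lowest in that library, but Tnmd was lowest in M92KO replicate 2. The sum of fat cell genes was lowest in M92KO replicate 2 (1873 to 2166 and 1384 to 1989 CPM), but most of it was Car3, at 929.6 CPM there. Adipoq, Plin1, Cidec, Retn and Cfd, named after their values were seen, were each highest of the 6 libraries in M92KO replicate 2. The sum therefore does not rank the libraries by fat cells. The sum of satellite cell genes was lowest in WT replicate 2 (239.4 to 253.5 and 260.9 to 282.1 CPM). Its largest part was Itga7, at 121.0 to 139.7 CPM in WT and 149.0 to 166.0 CPM in M92KO muscle. Of the 9 genes, 3 had negative log2 fold changes, among them Chodl at 21.4 to 24.7 and 15.9 to 18.4 CPM. The sum therefore does not speak for every gene of the list. Schwann cell genes (86.2 to 125.8 and 86.3 to 94.4 CPM) and red cell genes (74.0 to 222.6 and 142.9 to 335.9 CPM) were lowest in WT replicate 3. The 14 muscle fibre genes summed to 163700 to 180600 CPM in WT and 166400 to 176100 CPM in M92KO muscle, with Acta1, the skeletal actin gene, at a log2 fold change of 0.007.

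Among endothelial genes, which matter for Cd34, 4 of 14 were lower and 0 higher at the unadjusted level, with a median of -0.15. Over all genes tested, 6.92% were lower and 5.47% higher at that level. Ptprb, a vascular phosphatase, was at -0.44 and Tie1, a vascular receptor, at -0.23 (adjusted p = 0.179 and 0.258 from edgeR), and Kdr, a receptor for vascular endothelial growth factor, at -0.003. Of 10 mural genes 2 were lower and 1 was higher, with Rgs5, a pericyte gene, at -0.19 and Cspg4, the proteoglycan NG2, at 0.43. Of 10 tendon genes, whose cells share Dcn and Fbn1 with muscle fibroblasts, 4 were lower and 0 higher, with a median of -0.65. Kera, a small proteoglycan, was at -1.62 and Tnmd, which marks tendon cells, at -0.91 (both with an adjusted p = 0.165 from edgeR), while Thbs4 was at -0.04. Without M92KO replicate 1, 3 tendon, 2 endothelial, 2 muscle fibre, 1 mural and 1 satellite cell gene had an adjusted p-value under 0.05 from edgeR, and no gene of the remaining cell type lists did.

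Of 9 fat cell genes tested (Lep was not), 2 were lower and 0 higher, although the median of the list was 0.40. Plin4, a lipid droplet protein, was at -0.43 and Pparg, the regulator of fat cell formation, at -0.55, while Car3, also a muscle gene, was at -0.31. The values of Plin4 and Pparg were -0.25 and -0.32 without WT replicate 3. The other tested genes did not pass the unadjusted test, and 5 of them, named after their values were seen, were positive at low levels: Adipoq at 0.40, Plin1 at 0.62, Cfd at 0.84, Cidec at 0.95 and Retn at 0.97. Per kb of the longest transcript, Plin4 stood at 88.6 ± 18.5 CPM in WT muscle and Adipoq at 0.727 ± 0.210 (SD, n = 3 each). Which cells made Plin4 was not tested. Of 9 satellite cell genes, 3 were lower and 3 higher, with Chodl at -0.46, Cdh15 at 0.32 and Itga7 at 0.29. Of 11 macrophage and leukocyte genes 1 (9.09%) was lower, beside 6.92% of all genes tested. It was Ptprc at -0.53, with Mrc1 at -0.39 and Lyz2 at -0.06. Of 9 Schwann cell genes 3 were lower and 0 higher, with Mbp at -0.39 and Cdh19 at -0.54. Of 14 muscle fibre genes 1 was higher, Myh2 of oxidative fast fibres at 0.70, with Neb at 0.23, and of 5 red cell genes 0 were lower or higher, with Hbb-bs at 0.66, Hbb-bt at 0.70 and Hba-a1 at 0.67.

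The same lists were counted without M92KO replicate 1, where 8.96% of all genes tested were lower and 9.62% higher at the unadjusted level. Lower and higher genes then numbered 5 and 0 for endothelial genes (median -0.11), 1 and 2 for mural genes (-0.01), 5 and 0 for tendon genes (-0.80), and 2 and 0 for fat cell genes (0.53). They numbered 2 and 3 for satellite cell genes (0.11), 1 and 1 for macrophage and leukocyte genes (-0.07), and 1 and 0 for Schwann cell genes (-0.22). For muscle fibre genes they numbered 1 and 2 (median -0.02, against 0.04 with all libraries), and for red cell genes 0 and 0 (0.52).

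The genes whose level over the 6 libraries was most like the mean of the markers were found by the root mean square difference of centred log2 CPM, out of all tested genes that were not markers. They were Snx27 (0.0234), Hivep2 (0.028), Abcb10 (0.0294), Lhfp (0.0302) and Pdzd8 (0.0305), each over 6 libraries. The markers, which were not picked by this measure, differed from their own mean by 0.0706 for Pdgfra, 0.0852 for Dpt and 0.0916 for Dpp4, up to 0.238 for Clec3b and 0.282 for Fbn1. The 5 genes were picked for the smallest differences, so their values do not show how alike the markers were. All 5 genes were lowest in M92KO replicate 1, as was the mean of the markers by which they were picked. For instance, Snx27 stood at 69.4, 65.2 and 68.0 CPM in WT and at 53.5, 68.4 and 69.8 CPM in M92KO muscle. The log2 fold changes of the 5 genes lay between -0.09 and -0.07, and their groups overlapped.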

How the data were processed

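The authors deposited unnormalized counts of reads for 34714 gene symbols, made from SMARTer libraries of Gas muscle. GRCm38 is the build in the submitters' processing notes. The aligner, the counting program and strandedness are not given in the sources used here. Without strand, reads of Pdgfra, Pi16, Fbn1, Dpp4 and Cd34 cannot be told apart from those of antisense genes that overlap their exons.

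The main test, in R 4.3.3, was that of edgeR 4.0.16 (filterByExpr with a minimum count of 10 and a minimum total of 15, TMM, glmQLFit and glmQLFTest, no covariate), with Benjamini-Hochberg adjustment over the 15788 genes left. The steps in the study's methods (quantile normalization, log2 after adding 1, limma, all symbols) were an alternative, with limma 3.58.1, and so was DESeq2 1.42.0. Other alternatives were size factors of DESeq2, no filter, at least 10 counts in every library, the replicate number as a block, offsets that removed lowess trends (span 0.3) on GC content and the length of the longest transcript, known for 14751 genes tested, and leaving out each library. The scripts were tested on simulated data. CPM used TMM-normalized library sizes, a floor of 3 counts came to 0.0629 to 0.0916 CPM, and intervals and floors cover only the error they are computed from. P-values measure the spread between 3 mice in each group, at 1 library per mouse. No 2 replicate libraries agreed within sampling noise.

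The markers and lists were chosen with earlier results of these data known. Ratios to Pdgfra and list counts without M92KO replicate 1 were added after seeing the data. Genes named are the 10 markers, the 2 with the smallest p-value and the highest CPM in each of 13 other lists, and the 5 genes most like the markers' mean; 1 gene that this rule picks is not reported here, and genes outside it are marked as chosen after their values were seen. Positions and 3′-UTRs of at least 20 bases came from GENCODE M21 (GRCm38), with 25731 symbols matched by name and 421 by a synonym. Figures were made in Python 3.11.15 with matplotlib 3.10.9.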

Additional observations from a re-analysis of the deposited data

How the results depend on the processing

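Over 14 alternatives, 132 of 140 log2 fold changes of the markers kept their sign, and no marker had an adjusted p-value under 0.05 in any of them. Of the 8 that turned, 5 were of Cd34 (-0.007 with the study's limma steps, and -0.045 to 0.096 when 1 library at a time was dropped). The others came without M92KO replicate 1: Pdgfra at 0.01 (-0.18 to 0.01 over those fits), Fbn1 at 0.205 (-0.378 to 0.205) and Dpp4 at 0.035 (-0.29 to 0.035). Markers called lower at an unadjusted p-value of 0.05 were 2 without a filter, with the replicate block, with GC and length offsets, and with both offsets and block, and 1 to 3 with a library left out. Of all genes, those lower at that level numbered 1316 of 23231 without a filter and 1005 of 15788 with the block. They numbered 1060 of 15788 with the offsets and 936 of 15788 with both. With a library left out they numbered 691 of 15970 (without WT replicate 2) to 1439 of 16058 (without M92KO replicate 1). Markers called higher were 0 to 1 with a library left out, beside 531 of 15970 to 1545 of 16058 of all genes in the same fits. Over all genes, adjusted p-values under 0.05 numbered 312 with DESeq2, 6 without a filter, 42 with the limma steps, 2 with the replicate block, 2 with block and offsets, and 0 to 401 with a library left out. Genes at an unadjusted p-value of 0.05 numbered 1222 to 2984 with a library left out (1222 without WT replicate 2, 1272 without WT replicate 3 and 2984 without M92KO replicate 1). Of the calls, 44.1% were higher in M92KO muscle, and 54.4% with the limma steps. The cause of these shifts was not tested. The labels do not say whether equal replicate numbers pair the mice. Deviations from group means correlated across genes at 0.0739, 0.0389 and 0.0151 for equal numbers. For unequal numbers they correlated at -0.0727 to 0.0389, and WT replicate 3 correlated better with M92KO replicate 2 than with M92KO replicate 3. These values do not settle whether the mice were paired.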
